A study of Columba livia with 4 samples.

Results

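Chromatin deserts are described here: long stretches of the pigeon genome in which cultured melanocytes carried no called base of acetylated lysine 27 of histone H3 (H3K27ac) and none of trimethylated lysine 27 of histone H3 (H3K27me3). Members were chosen by the deposited peak lists of both marks, pooled on scaffolds whose highest peak end in any list was at least 1 Mb, as the stretches of at least 150 kb between consecutive peaks. Of 53207 unmarked stretches on these 127 scaffolds, 858 (1.61%) met the rule. They held 252 Mb, which was 24.8% of the 1016 Mb spanned. The comparison class was the 16863 unmarked stretches of 10 to 150 kb, called shorter stretches below, with 610 Mb or 59.997% of the span.

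The study profiled primary melanocytes of the domestic pigeon, Columba livia, of wild-type genotype, with 1 chromatin immunoprecipitation library each for SOX10, H3K27ac and H3K27me3, and 1 input library of sheared chromatin whose data were not analysed here. All 4 came from cells grown in a Ham's F10 medium with 10% fetal bovine serum, 5% Nu-serum, penicillin and streptomycin, fungizone, endothelin-3 at 10 ng/mL, cholera toxin at 40 ng/mL and the phorbol ester TPA at 85 nM. Cells were fixed in 1% formaldehyde for 15 min. No replicate error exists for any value, no test between samples was possible, and intervals are exact 95% intervals (Poisson for counts and densities, binomial for shares) that cover counting error only, in which neighbouring peaks are not independent.

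H3K27ac is placed by histone acetyltransferases at active promoters and enhancers, and H3K27me3 is written by Polycomb repressive complex 2 over silenced developmental genes. Much of a vertebrate genome carries neither: gene-poor chromatin is commonly held at the nuclear periphery and packed with other modifications, such as methylation of lysine 9 of histone H3, which these libraries did not measure. SOX10 is a transcription factor of the SOX family with a high-mobility-group DNA-binding domain. It is required for the melanocyte lineage, where it acts with MITF on pigment genes, and it binds mostly at enhancers and promoters. "Desert" below refers only to the absence of called peaks of these 2 marks.

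Deserts were few but took up much of the genome. Their lengths ran from 150.1 kb to 1666 kb with a median of 229 kb and an interquartile range of 180.1 to 333 kb, against a median of 25.5 kb (15.8 to 46.4 kb) in shorter stretches. The number of stretches dropped steadily with length, from 8260 of 10 to 25 kb through 835 of 100 to 150 kb to 494 of 150 to 250 kb, 277 of 250 to 500 kb and 87 of at least 500 kb. The 87 longest held 25.4% of all desert bases, and 12 deserts reached 1 Mb. The distribution had no gap at the rule's threshold. The 5 shortest members measured 150.063, 150.084, 150.177, 150.449 and 150.462 kb, and the 5 longest stretches left out measured 149.723, 149.692, 149.508, 149.449 and 149.256 kb. Of these 5 members 1 held a SOX10 summit, on AKCR02000024.1, and so did 1 of the 5 left out, on AKCR02000015.1. Unmarked scaffold ends, which the rule leaves out, added 7 further stretches of at least 150 kb, the longest 754 kb. The number depended on the peaks used: with histone peaks of −log10 q of at least 3 there were 1413 deserts, with H3K27ac alone 1498 and with H3K27me3 alone 1771. The share of the span was then 44.3%, 50.6% and 57.9%, and 38.9% with histone peaks of at least 500 bp. It was 34.8% with a minimum length of 100 kb and 15.6% with 250 kb.

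**Figure D1:**
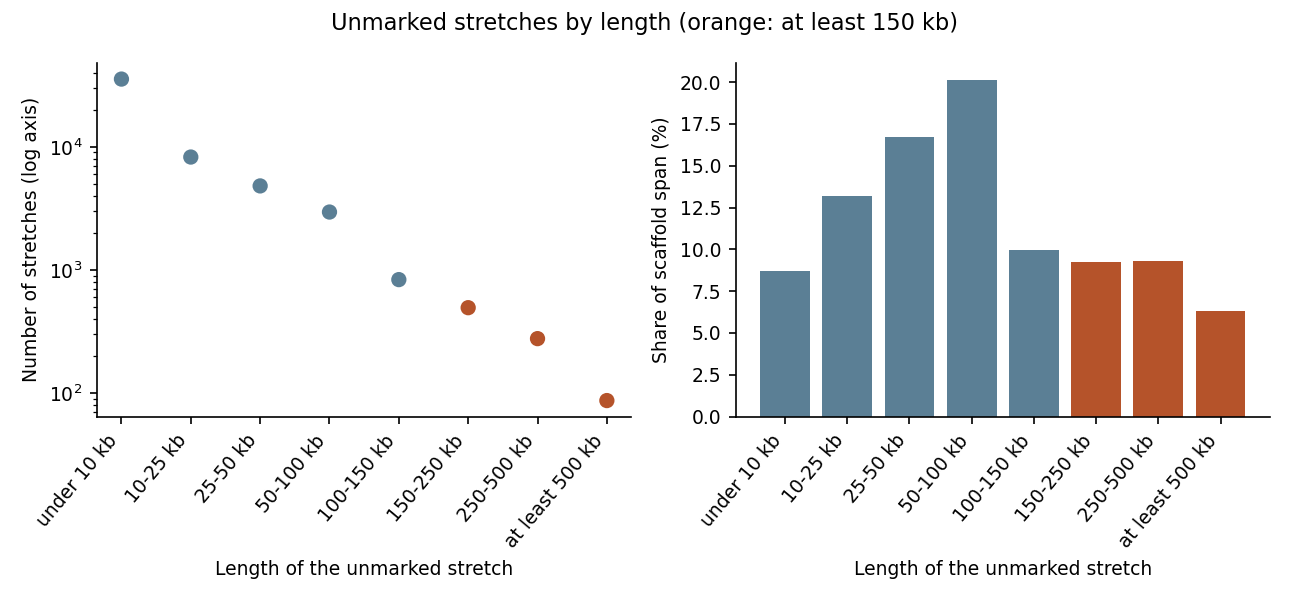
Unmarked stretches on scaffolds of at least 1 Mb by length class, with the number of stretches (left, log axis) and the share of the scaffold span they cover in percent (right). The 3 orange classes are the 858 deserts: 9.22%, 9.31% and 6.31% of the span lay in deserts of 150 to 250 kb, 250 to 500 kb and at least 500 kb.

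The 2 longest deserts lay on the same scaffold, AKCR02000003.1. The longest covered bases 7530413 to 9196423 (1666 kb), with an H3K27me3 peak of fold 2.82 at its left edge and one of fold 3.34 at its right edge, where fold is the authors' enrichment over local background. Inside it was a single SOX10 summit with a fold of 3.005. The next covered bases 43016838 to 44667036 (1650.2 kb), also between H3K27me3 peaks, of fold 2.86 and 6.00, and held a single SOX10 summit of fold 4.38. On AKCR02000001.1 a desert of 1470 kb at 80184616 to 81654268 was bounded by H3K27ac peaks of fold 9.82 and 5.47 and held 1 summit of fold 5.08. It was the only desert of the 10 longest with H3K27ac at both edges.

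Of the 10 longest deserts 6 held no SOX10 summit, against 79.3% of all deserts. The fourth by length, at 4582159 to 5848810 of AKCR02000001.1 (1267 kb), was the longest desert of all without a SOX10 summit. The fifth, at 4093883 to 5335616 of AKCR02000006.1 (1242 kb), held 3. The other 5 lay on AKCR02000025.1 (1195 kb), AKCR02000003.1 (1145 kb, at 12681466 to 13826421), AKCR02000045.1 (1096 kb), AKCR02000037.1 (1070 kb) and AKCR02000053.1 (1067 kb), and none of them held a SOX10 summit. Together the 10 spanned 12.9 Mb with 6 summits, or 0.466 per Mb (95% interval 0.171 to 1.01). Of their 20 edges 14 carried H3K27me3, against 56.8% of all desert edges, a small count that was not tested.

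Deserts occurred on 103 of the 127 scaffolds and took a median of 19.98% of a scaffold's span (interquartile range 7.61 to 31.2%). Pooled by scaffold span, deserts took 20.5% at 1 to 5 Mb, 18.8% at 5 to 10 Mb, 22.1% at 10 to 20 Mb and 30.8% from 20 Mb upward. Shares varied most on short scaffolds, from 0 to 79.4% at 1 to 5 Mb, against 13.9 to 39.9% at 20 Mb and above. The scaffold with the largest share was AKCR02000083.1, where 3 deserts covered 79.4% of 1.95 Mb. It was followed by AKCR02000105.1 (77.2%), AKCR02000126.1 (73.6%, in a single desert of 815 kb), AKCR02000082.1 (59.2%) and AKCR02000069.1 (55.8%). Of the 5 longest scaffolds, AKCR02000001.1 held 97 deserts (35.4% of its span), AKCR02000002.1 79 (28.7%), AKCR02000003.1 69 (39.9%), AKCR02000004.1 37 (21.4%) and AKCR02000005.1 40 (25.5%).

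The 24 scaffolds without a desert had spans of 1.29 to 7.33 Mb, together 65.2 Mb. Their medians of both marks were higher, with a median of 6.65% of span under H3K27ac, against 3.15% on scaffolds with deserts, and 6.90% under H3K27me3, against 1.83%. Both lists made the rule, so these values describe it. The SOX10 list entered the rule only through the span, which a SOX10 peak set on 6 of the 127 scaffolds. On the 24 scaffolds without deserts the median density was 8.65 SOX10 peaks per Mb (4.17 to 18.6), against 7.09 per Mb (0 to 14.2) outside the deserts of the other 103. These ranges overlapped widely. Over the 127 scaffolds the rank correlation of the desert share with the SOX10 density outside deserts was −0.21, with the H3K27ac share −0.75, with the H3K27me3 share −0.61 and with the span 0.14. The measures share the same lists and spans, and scaffolds are not replicates.

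**Figure D2:**
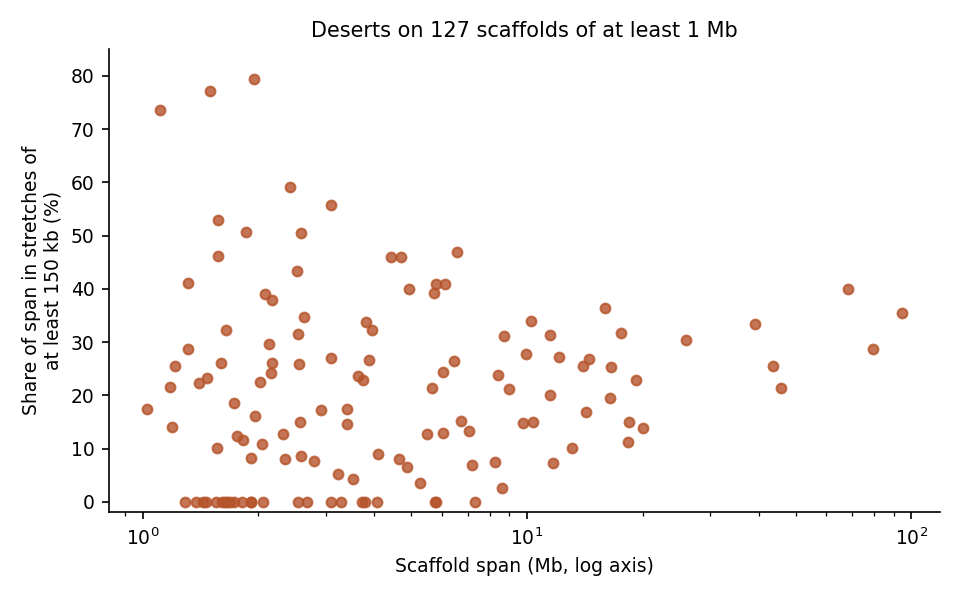
Share of each scaffold's span in deserts, in percent, against the span in Mb on a log axis, 1 point per scaffold (127 points). The 24 points at 0 are scaffolds without a desert, with spans of up to 7.33 Mb, and the highest is AKCR02000083.1 at 79.4%.

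Consecutive deserts on a scaffold were a median of 198 kb apart, and some were parted by little. Of 755 such pairs, 196 (26.0%) were less than 10 kb apart, and 123 (16.3%) were parted by a single marked block. The median such block was 441 bp. H3K27me3 alone formed 74 of the 123 blocks, H3K27ac alone 48, and both marks 1. Over all desert edges 56.8% were H3K27me3. A SOX10 summit lay in 2 of the 123, beside 72 of the 1594 distinct peaks at desert edges (4.52%). Over all 196 narrow separations, 7 summits fell in 0.394 Mb, or 17.8 per Mb (7.14 to 36.6), against 48.8 per Mb in all marked blocks and 11.3 per Mb in all unmarked stretches under 10 kb, the kinds of chromatin that make up these separations.

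Joining deserts across separations under 10 kb gave 662 tracts, of which 133 contained at least 2 deserts and together 329 of the 858. The longest tract, at 53542622 to 57575845 of AKCR02000003.1, ran 4.03 Mb through 10 deserts with 4 SOX10 summits. It was followed by a tract of 3.22 Mb with 4 deserts on AKCR02000001.1, with 1 summit, and by tracts of 2.88 and 2.83 Mb with 3 deserts each on AKCR02000003.1, with 1 and 2 summits.

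The edge of a desert was more often an H3K27me3 peak than an H3K27ac peak, the opposite of shorter stretches. Of 1716 desert edges 742 (43.2%, 40.9 to 45.6%) were H3K27ac and 974 (56.8%) H3K27me3, against 56.6% (56.1 to 57.1%) H3K27ac and 43.4% H3K27me3 of 33726 edges of shorter stretches. Of all histone peaks on these scaffolds 48.4% were H3K27ac. Both edges were H3K27me3 in 288 deserts (33.6%), both H3K27ac in 172 (20.05%) and mixed in 398 (46.4%), against 28.0%, 41.3% and 30.7% of shorter stretches. Median lengths were 237 kb for deserts between H3K27me3 peaks, 229.6 kb for mixed ones and 213 kb for those between H3K27ac peaks. These values come from the lists that made the rule and carry no test. The share depended on the peak threshold: with histone peaks of −log10 q of at least 3 only, 60.8% of desert edges were H3K27ac, against 75.3% of edges of shorter stretches. With histone peaks of at least 500 bp only, it was 51.8% against 64.7%. Under both, H3K27ac was the commoner mark at desert edges, and its share there was still smaller than at shorter stretches.

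Few marked blocks at edges held both marks, 1.86% at desert edges and 2.66% at edges of shorter stretches. All other edge blocks, 98.1% and 97.3%, were a single peak. Only overlapping or touching peaks were merged, so such a peak can still lie close to the next one. H3K27me3 edge peaks of deserts had a median fold of 3.18, a median width of 412 bp, and a −log10 q under 3 in 72.6%, against 3.06, 387 bp and 83.3% at shorter stretches. H3K27ac edge peaks had a median fold of 3.66, a median width of 634.5 bp and a −log10 q under 3 in 37.1%, against 3.89, 737 bp and 31.4%. Of all peaks on these scaffolds, H3K27me3 had a median fold of 3.19 with 76.7% under a −log10 q of 3, and H3K27ac 3.81 with 34.6%. Beyond 10 kb from the edge the surroundings were sparsely marked too. In the 10 kb outward of a desert edge 15.7% of bases were marked, against 18.0% at shorter stretches. From 10 to 50 kb outward it was 3.10% against 7.93%, and from 50 to 100 kb 2.98% against 7.45%. The share over the whole span, with each base counted once, was 6.02%, above both desert values beyond 10 kb. Windows of neighbouring edges overlap, so a base can count more than once and the window shares are not of distinct bases. These windows can also run into the next desert, as 196 of 755 consecutive pairs were less than 10 kb apart. The marked bases also come from the lists that made the rule.

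The SOX10 list did not set where deserts lay, and all 127 scaffolds also reached 1 Mb by histone peaks alone. Deserts held 213 of the 5785 SOX10 summits on these scaffolds, or 3.68% (3.21 to 4.20%) of summits on 24.8% of the span. Their density was 0.844 summits per Mb (0.735 to 0.966), against 2.59 (2.46 to 2.72) from 1578 summits in shorter stretches. The ratio was 0.326 (0.281 to 0.377). On the log2 scale it was −1.62, and it was −0.94 where only histone peaks of −log10 q of at least 3 bounded the stretches and −0.95 for SOX10 peaks of fold of at least 5. In unmarked stretches under 10 kb the density was 11.3 per Mb, and within marked blocks it was 48.8 per Mb. Only 9 of the 213 desert peaks reached with part of their interval into a marked block (4.23%), against 79 of 1578 (5.01%) in shorter stretches.

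Density declined with the length of the stretch on both sides of 150 kb. From short to long, the density was 3.45 summits per Mb at 10 to 25 kb (463 summits), 2.77 at 25 to 50 kb, 2.27 at 50 to 100 kb, 1.78 (1.53 to 2.06) at 100 to 150 kb, 1.23 (1.01 to 1.47) at 150 to 250 kb, 0.814 (0.643 to 1.02) at 250 to 500 kb and 0.328 (0.203 to 0.501) at 500 kb and above, where 21 summits fell in 64.1 Mb. Each of these values was below the one before it. The intervals of the classes on either side of 150 kb do not overlap, nor do those on either side of 500 kb, whereas those on either side of 250 kb do, barely.

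**Figure D3:**
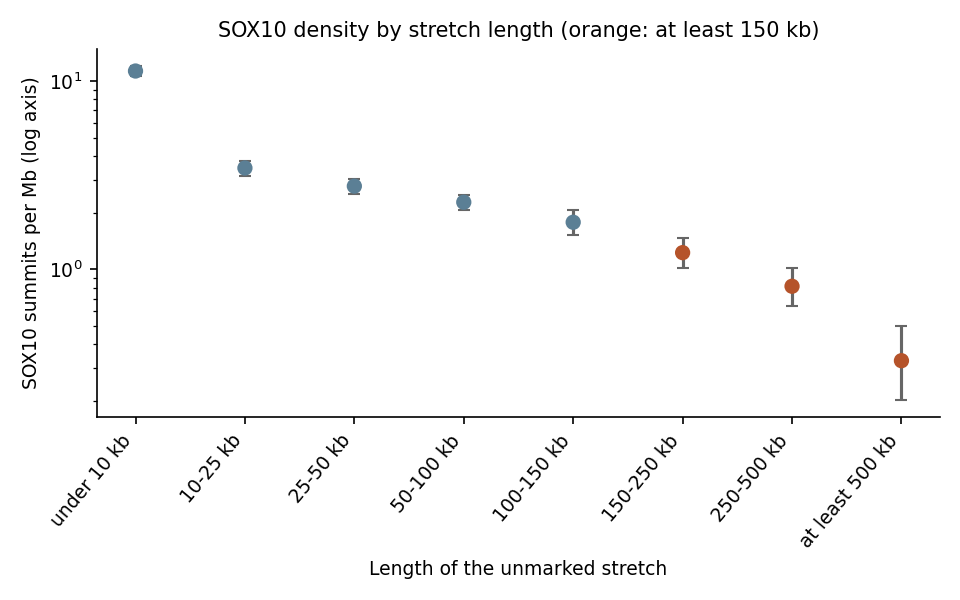
SOX10 summits per Mb (log axis) by length class of the unmarked stretch, with exact 95% Poisson intervals. Orange points are deserts. The density declines through every class, to 0.328 per Mb at 500 kb and above.

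Of the 103 scaffolds with deserts 90 had a lower SOX10 density in deserts than in shorter stretches, 8 a higher one and 5 the same. These 5 had no summit in either class and say nothing on the density. In all, 47 scaffolds had no summit in deserts. Of the 54 scaffolds with under 1 Mb of desert 42 were lower, but 38 of the 54 held no desert summit. Such a scaffold counts as lower wherever its shorter stretches held any summit, so these small counts say little. Among 49 scaffolds with at least 1 Mb of desert, 48 were lower in deserts, and 9 had no summit there. The exception was AKCR02000024.1, with 5 summits and 3.22 per Mb in deserts, against 3.12 per Mb in its shorter stretches. The other 7 scaffolds with a higher density in deserts had under 1 Mb of desert and 1 to 3 summits in it. On the 5 longest scaffolds, the density in deserts was 0.628 per Mb against 2.58 in shorter stretches on AKCR02000001.1, 1.36 against 2.34 on AKCR02000002.1, 0.549 against 2.89 on AKCR02000003.1, 0.817 against 2.48 on AKCR02000004.1 and 1.08 against 2.63 on AKCR02000005.1. AKCR02000002.1 alone held 31 of the 213 desert summits.

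Most deserts contained no SOX10 site at all. None was called in 680 of the 858 (79.3%, 76.4 to 81.9%), 1 in 145, 2 in 31 and 3 in 2 deserts. Of the 87 deserts of at least 500 kb 70 held none. Deserts with a summit had a median length of 235 kb, against 227 kb for those without. Among shorter stretches, which offer far fewer bases each, 15425 (91.5%, 91.0 to 91.9%) held none and 128 held at least 2, with at most 4. The spacing of SOX10 sites within a desert depends on its length. It was not compared with the spacing that length alone would give. The 35 neighbouring pairs of summits were a median of 77.3 kb apart and 2 pairs were under 5 kb, against a median of 12.1 kb and 42 of 140 pairs under 5 kb (30.0%) in shorter stretches, whose length itself limits the spacing.

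SOX10 summits in deserts gathered at the edges. Within 10 kb of an edge lay 54 of 213 summits (25.4%, 19.7 to 31.7%) but only 6.80% of desert bases, so the density there was 3.15 per Mb, against 0.676 per Mb deeper inside, a ratio of 4.65 (3.35 to 6.37). On the log2 scale this ratio was 2.22, and it was 1.53 with histone peaks of −log10 q of at least 3 and 1.36 with those of at least 500 bp. The same ratio in shorter stretches was 1.87 (1.68 to 2.07), from 3.38 per Mb within 10 kb and 1.81 per Mb deeper inside. Bases more than 75 kb from an edge exist only in deserts, so the 2 ratios do not cover like depths. The median distance to the edge was 41.1 kb (interquartile range 9.70 to 82.7 kb) for desert summits, while the mean distance over desert bases was 103 kb. In the central 50% of a desert's length lay 35.2% (28.8 to 42.0%) of its summits, against 36.0% (33.6 to 38.4%) in the central 50% of shorter stretches, where 50% of bases lie in both.

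Compared at the same distance from an edge, deserts and shorter stretches were closer. Within 2 kb of an edge the density was 8.74 per Mb (5.90 to 12.5) in deserts and 7.68 (7.03 to 8.37) in shorter stretches, a ratio of 1.14 (0.760 to 1.64). From 2 to 5 kb it was 1.55 against 2.24 per Mb, and from 5 to 10 kb 1.86 against 2.07, with intervals of the ratio that include 1. From 10 to 20 kb the density was 1.05 (0.622 to 1.66) in deserts and 2.13 (1.91 to 2.38) in shorter stretches, a ratio of 0.491 (0.287 to 0.789). From 20 to 50 kb it was 0.913 against 1.58 per Mb, a ratio of 0.577 (0.412 to 0.793). From 50 to 75 kb it was 0.793 against 0.965, where shorter stretches had only 17 summits. Beyond that only deserts had bases, with 0.739 per Mb at 75 to 100 kb and 0.390 (0.272 to 0.542) above 100 kb. When the densities of shorter stretches in each band were applied to the desert bases within 75 kb of an edge, 215.2 summits were expected and 153 were seen, a ratio of 0.711 (counting interval of the observed number, 0.603 to 0.833). The mark on the edge was not matched, and H3K27ac made up 43.2% of desert edges and 56.6% of edges of shorter stretches. Leaving out the bases beyond 75 kb, without matching distance, gave 1.19 summits per Mb in deserts and a ratio of 0.459 (0.386 to 0.542) to all shorter stretches, so the step from 0.326 to 0.711 combines this limit with the matching.

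**Figure D4:**
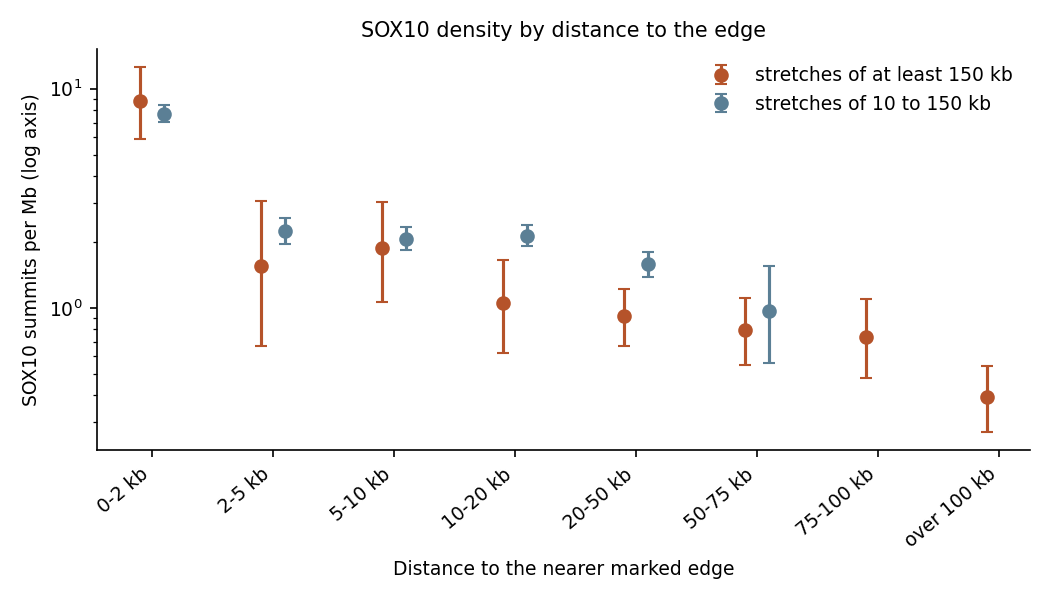
SOX10 summits per Mb (log axis) by distance to the nearer marked edge, for deserts (orange) and shorter stretches (blue), with exact 95% Poisson intervals. Both are highest within 2 kb of an edge, at 8.74 per Mb in deserts and 7.68 in shorter stretches, and deserts lie below shorter stretches from 10 to 50 kb.

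SOX10 density also differed with the mark on the nearer edge. Within 10 kb of an H3K27ac edge, deserts held 36 summits at 4.85 per Mb (3.40 to 6.72), and within 10 kb of an H3K27me3 edge 18 summits at 1.85 per Mb (1.10 to 2.92), a ratio of 2.63 (1.45 to 4.91). At 10 to 50 kb the densities were 1.31 per Mb on the H3K27ac side and 0.667 on the H3K27me3 side, a ratio of 1.97 (1.17 to 3.37). Above 50 kb they were 0.650 on the H3K27ac side and 0.506 on the H3K27me3 side, a ratio of 1.28 whose interval (0.836 to 1.96) includes 1. In shorter stretches the ratio within 10 kb was 1.67 (1.46 to 1.91), from 4.10 per Mb beside H3K27ac and 2.45 beside H3K27me3. At 10 to 50 kb it was 1.28 (1.08 to 1.53), from 2.07 and 1.61 per Mb. The intervals of these ratios for deserts and shorter stretches overlap, and the difference between them was not tested.

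Taken over all folds, acetylated peaks at desert edges and elsewhere held SOX10 at similar shares. Of 694 distinct H3K27ac peaks at desert edges 71 (10.2%, 8.08 to 12.7%) contained a SOX10 summit, against 10.2% (9.68 to 10.7%) of 15048 at shorter stretches and 9.57% of all 26739 on these scaffolds. Over tertiles of H3K27ac fold, from weak to strong, 10 of 242 peaks at desert edges (4.13%, 1.999 to 7.47%), 23 of 262 (8.78%, 5.65 to 12.9%) and 38 of 190 (interval 14.6 to 26.4%) contained a summit. At shorter stretches the shares were 1.87% (1.51 to 2.30%), 6.24% (5.59 to 6.94%) and 21.5% (20.4 to 22.7%). Over all H3K27ac peaks they were 1.36% (1.13 to 1.62%), 5.69% (5.22 to 6.19%) and 21.7% (20.8 to 22.5%). The intervals of desert edges and shorter stretches overlap in each tertile. In the weakest tertile the interval of desert edges, from 10 peaks with a summit, lies above that of all H3K27ac peaks. The set of all H3K27ac peaks includes those at desert edges, and the difference was not tested. Of 900 distinct H3K27me3 peaks at desert edges 1 contained a SOX10 summit (0.111%, 0.00281 to 0.618%), against 0.138% of 11584 at shorter stretches.

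SOX10 peaks in deserts were close in strength to those in shorter stretches. Their median fold was 3.59 (interquartile range 3.03 to 4.19), against 3.36 (2.89 to 3.97) in shorter stretches and 3.28 within marked blocks. Their median −log10 q was 5.39, against 5.22, and their median width was 182 bp, against 187 bp. Fragments at the summit, recovered from the authors' fold and p, had a median of 28 (22 to 37), against 30 (24 to 38). The local background was lower in deserts, at a median of 6.99 fragments against 7.99 in shorter stretches and 9.68 in marked blocks, and lower backgrounds go with higher folds at a fixed q-value cutoff. In the lowest quintile of background lay 41.8% of the desert peaks, against 26.2% of those in shorter stretches. Within that quintile the median fold was 3.77 in deserts, against 3.74 in shorter stretches. In the next quintiles it was 3.63 in deserts against 3.45, then 3.46 against 3.38, 3.30 against 3.01, and 2.70 against 2.65 in the highest quintile. The difference in medians at like background ran from 0.035 to 0.30, against 0.22 without regard to background. The part of background in the difference was not tested further. The difference of 0.22 (0.096 to 0.38) was 0.11 (−0.10 to 0.36) without the 3 longest scaffolds. It was 0.096 (−0.02 to 0.21) with a minimum length of 100 kb. Among SOX10 peaks of −log10 q of at least 5 it was 0.14 (−0.056 to 0.45). Among those of the upper 3 quintiles of background it was 0.18 (−0.24 to 0.35). With histone peaks of −log10 q of at least 3 it was 0.070 (−0.0002 to 0.17), and with those of at least 500 bp 0.063 (−0.032 to 0.16). Apart from the first, each of these intervals has a negative lower end. They cover the desert median only, with the median of shorter stretches held fixed. Among SOX10 peaks of fold of at least 5, a cut on fold itself that left 22 desert peaks, the difference was −0.33 (−0.55 to 0.17). Other settings gave larger differences, with intervals that stay positive. These were 0.26 with a minimum length of 250 kb, 0.31 for bases at least 10 kb from an edge and 0.25 against stretches of 50 to 150 kb. On scaffolds of at least 10 Mb, and with scaffold ends, it was 0.24.

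Strength also varied with depth into the desert. Desert peaks within 10 kb of an edge had a median fold of 3.46 with 32 fragments over a background of 8.74 (54 peaks). Those at 10 to 50 kb had 3.51 with 30 fragments over 7.99 (65 peaks), and those beyond 50 kb had 3.76 with 25 fragments over 5.99 (94 peaks). Shorter stretches had 3.37 with 31 fragments within 10 kb and 3.34 with 29 fragments at 10 to 50 kb, and beyond 50 kb 17 peaks with 3.41 and 30 fragments over a background of 7.19. The deepest desert peaks combined the highest folds with the fewest fragments, beside the lowest background. By length, the 21 peaks in deserts of at least 500 kb had a median fold of 3.77 and a median of 24 fragments, over a background of 5.99. Peaks beyond 50 kb from an edge are among them, so this is no separate observation.

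**Figure D5:**
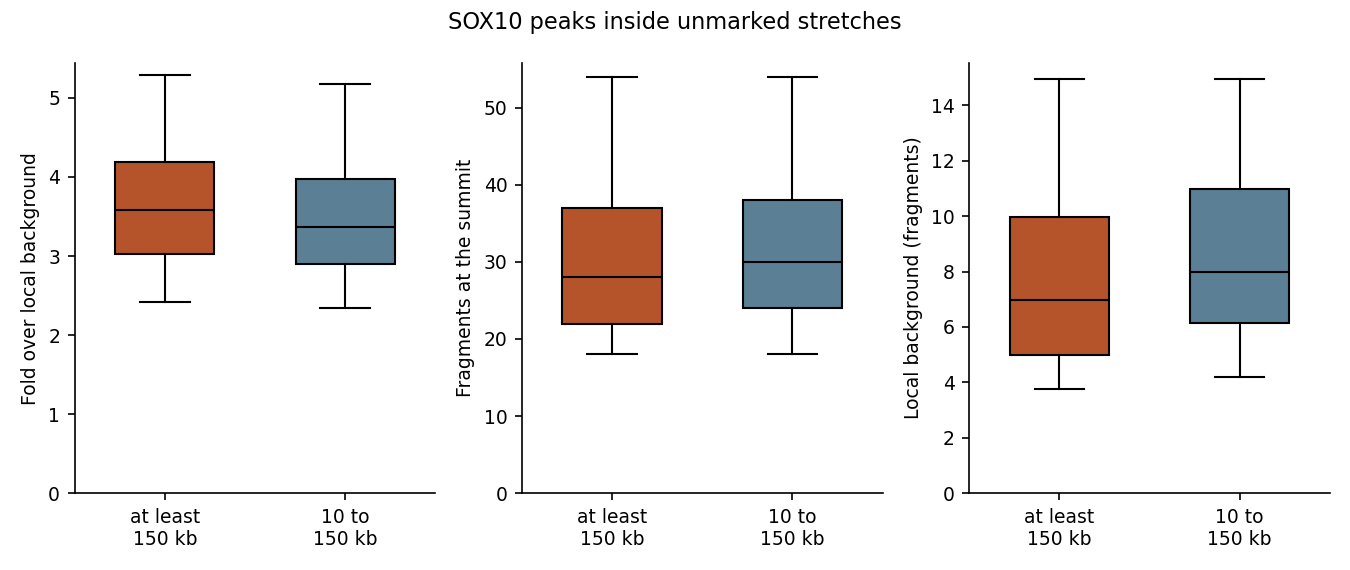
Fold over local background, fragments at the summit and local background in fragments of the SOX10 peaks in deserts (orange, 213 peaks) and shorter stretches (blue, 1578 peaks). Boxes give the median and quartiles and whiskers the 5th to 95th percentile. Median folds are 3.59 in deserts and 3.36 in shorter stretches, median fragments 28 in deserts and 30 in shorter stretches, and median backgrounds 6.99 in deserts and 7.99 in shorter stretches.

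SOX10 peaks of high fold did occur deep in deserts, though none reached the highest folds elsewhere. The highest fold in a desert was 7.12 among 213 peaks, against 11.9 among 1578 in shorter stretches and 16.6 among 2983 in marked blocks. A highest value depends on the number of peaks, so these maxima are not compared at like numbers. Of the desert peaks 22 (10.3%) had a fold of at least 5, against 103 (6.53%) in shorter stretches. The share was 11.7% in unmarked stretches under 10 kb, 7.48% in marked blocks and 8.06% over all SOX10 peaks on these scaffolds. The median background was 6.99 for desert peaks and 7.99 in shorter stretches, and these shares were not compared at like background. The strongest, at 21386524 to 21386765 of AKCR02000002.1, had 63 fragments over a background of 7.98 and lay 28.2 kb from the edge of a desert of 213 kb. The next, at 58909258 to 58909514 of the same scaffold, had a fold of 7.09 and 45 fragments, 126.0 kb from an edge. A further 2 of the 10 strongest peaks were on that scaffold, with folds of 6.51 and 6.44 at 22.5 and 23.9 kb from an edge. A peak of fold 5.44 at 1661849 to 1662144 of AKCR02000011.1 held the most fragments of any desert peak, 113 over a background of 19.96, and had the highest −log10 q, 41.2. The 10 strongest by fold lay in 10 different deserts, with folds of 5.44 to 7.12 and 25 to 113 fragments. The 2 with the fewest fragments, 25 and 26, had a background of 3.77. Over all desert peaks the medians were 28 fragments and a background of 6.99. Of the 10, 2 were within 10 kb of an edge and 5 were more than 50 kb inside. Of all 213 desert peaks, 54 (25.4%) were within 10 kb and 94 more than 50 kb inside. The placement of the 10 was thus close to that of all desert peaks.

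The most isolated SOX10 peak was also among the strongest. It lay at 4482895 to 4483233 of AKCR02000006.1, 389 kb from the nearest edge of the desert of 1242 kb, with a fold of 6.89 and 54 fragments over a background of 6.99. The same desert held peaks of fold 2.56 and 4.01 at 4291343 to 4291490 and 4369198 to 4369475, so its 3 summits lay 77.8 kb and 113.9 kb apart, in its left part. The other 4 of the 5 most isolated peaks lay 340 kb from an edge on AKCR02000002.1 (fold 3.005, 20 fragments), 283 kb on the same scaffold (4.61, 21 fragments), 278 kb on AKCR02000018.1 (3.25, 38 fragments) and 275 kb in the AKCR02000006.1 desert just named (4.01, 23 fragments). In all, 35 desert summits were at least 100 kb from any called H3K27ac or H3K27me3 peak.

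The densest desert of those with the most summits was at 4799382 to 5134558 of AKCR02000031.1, 335 kb long and bounded by H3K27ac peaks of fold 3.39 and 3.28. Its 3 SOX10 peaks, at 27.9, 53.0 and 62.9 kb from an edge, had folds of 3.26, 3.65 and 5.35 and held 27, 61 and 33 fragments. They gave 8.95 summits per Mb, against 0.844 over all deserts. Of the 31 deserts with 2 summits, the 3 longest were of 576 kb on AKCR02000002.1, 567 kb on AKCR02000003.1 and 464 kb on AKCR02000006.1, where the nearer of the 2 summits lay 0.069, 9.46 and 0.555 kb from an edge.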

How the data were processed

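Peak lists of 3 libraries (SOX10, H3K27ac, H3K27me3) were used, 1 library per target. MACS3 3.0.0, SAMtools 1.16, Bowtie2 2.2.9 and bcl2fastq 2.20 appear in the submitters' processing notes. Reads were single 75 nt ends, per the labels' protocols. Not given in the sources used here are the genome build, the control and each library's read total, so depth is unknown except behind SOX10 peaks. Each peak has a score that the authors deposited (10 times −log10 q, not used), a fold ratio over local background that the authors deposited (at the summit for SOX10, over the region for the marks), and p and q values that the authors deposited as −log10. The lists held 6579, 34223 and 36792 peaks.

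Scaffold span is the highest peak end in any list, a lower limit of its length. Overlapping or touching histone peaks were merged into blocks, and unmarked stretches are the bases between consecutive blocks. SOX10 peaks were placed by their summit. Coordinates count from 1. Runs of unknown bases and bases that reads cannot reach could not be masked, and their part in the deserts was not tested. No genome or annotation of these scaffolds was used here, so no gene or sequence is given. Fragments at a SOX10 summit were solved from fold = (fragments + 1) / (background + 1) and the Poisson p: for all 6579 peaks a whole number met the deposited −log10 p within 0.001. Ratios of densities have exact conditional binomial intervals. Finding stretches, placing summits, density ratios and the recovery of fragments were tested on simulated lists. Merging of peaks and the marks at edges were not checked there. The simulated fragments and backgrounds did not reach the highest of the data. Python 3.11.15, numpy 2.4.6, pandas 2.3.3 and scipy 1.17.1 were used.

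The members and the regions named were chosen with earlier results of these data known. The regions named are the 10 longest deserts, the 5 with the most SOX10 summits (ties by length), the 10 strongest and 5 most isolated SOX10 peaks in deserts, the 5 scaffolds with the largest desert share, the 5 longest scaffolds, and the 5 stretches on each side of 150 kb. AKCR02000024.1, the tracts and the peak with the most fragments were named after their values were seen. The separations between deserts, edge peaks with SOX10, distance-matched densities and background quintiles were also added after the data were seen.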

Additional observations from a re-analysis of the deposited data

How the results depend on the processing

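Of 66 recalculations 37 stayed within the interval of the first value, within 1.5 times a count, or in the same direction for another measure. The log2 ratio of SOX10 density, deserts over shorter stretches, was −1.62 and stayed negative in all 15 alternatives. It moved to −1.31 and −1.96 with a minimum length of 100 and 250 kb, −0.94 with histone peaks of −log10 q of at least 3, and −1.06 with those of at least 500 bp. It also moved to −0.95 with SOX10 fold of at least 5 (22 desert peaks) and −1.32 against stretches of 50 to 150 kb. With only SOX10 peaks of the upper 3 quintiles of background, over all bases, it was −1.88. The bases were not sorted by background, so that value is no comparison at like background. At like distance among bases within 75 kb of an edge it was −0.49. The last 2 values, and leaving out the 3 longest scaffolds, were chosen after seeing the data. The log2 ratio of density within 10 kb of an edge over deeper, 2.22, moved to 2.75 (250 kb), 1.53 (−log10 q) and 1.36 (500 bp). In the same order of minimum length (100, 250 kb), −log10 q and 500 bp, H3K27ac edges made up 47.4%, 40.5%, 60.8% and 51.8%. Deserts numbered 1693, 364 and 1413 with 100 kb, 250 kb and −log10 q, 1498 from H3K27ac alone and 1771 from H3K27me3 alone, and 25 scaffolds of at least 10 Mb held one. Deserts without SOX10 were 59.9% (−log10 q), 64.5% (500 bp), 87.8% (SOX10 −log10 q of at least 5) and 97.4% (SOX10 fold of at least 5). The difference in median SOX10 fold, 0.22, moved to 0.070 (−log10 q) and 0.063 (500 bp), and reversed to −0.33 with SOX10 fold of at least 5 and to −2 fragments by fragments at the summit. The cause was not tested. The edge ratio could not be computed without the bases near edges. No replicate could be left out. No paired analysis was possible because only 1 library was made per target. Peaks under the callers' cutoffs are not seen, and the depth of the histone libraries is unknown, so a desert may hold either mark at a level that was not called.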
